A study of Homo sapiens with 8 samples.

Results

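Transcripts of 9 genes linked to the complement system were examined in MDA-MB-157 cells, an established estrogen receptor-negative breast cancer line, under control and hyperglycemic culture. The genes were C1R, C1S, C3, CFI, SERPING1, CD46, CD55, CD59 and CPAMD8, taken by symbol from the 21059 genes of the expression table, and each symbol was found. They were selected on the same high-glucose against low-glucose differences that are given here, so those differences are a description of the 9 genes and carry no test. Cells in T25 flasks received either low glucose (5 mM, the control) or high glucose (25 mM, the model of hyperglycemia) for 48 hours, with 4 RNA-Seq libraries per group and 8 in all. The study's methods describe media without serum, with all cells first conditioned in low glucose. Whether the replicates were separate cultures is not stated, so the p-values given for other genes measure the spread among these samples, which may be technical. The glucose doses come with no osmotic control among the 8 libraries, and an effect of osmolarity and of glucose cannot be told apart. In other experiments the paper reports that mannitol added to the low-glucose control made no difference to proliferation or migration. Those readouts were not RNA levels.

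Complement is a cascade of plasma and cell-surface proteins that tags targets with fragments of C3 and C4 and can end in a pore in the membrane. C1r and C1s are the serine proteases of the C1 complex, which starts the classical pathway by cleaving C4 and C2, and C1 inhibitor, the product of SERPING1, shuts both proteases off. C3 is the component on which all activation routes meet. Factor I, encoded by CFI, cleaves C3b and C4b with the help of cofactors such as CD46, CD55 accelerates the decay of the C3 convertases, and CD59 blocks assembly of the membrane attack complex. CPAMD8 belongs to the family of C3 and alpha-2-macroglobulin, whose members carry or derive from a thioester domain, and it is not an established part of the cascade. The liver makes most plasma complement, and many epithelial and tumor cells make some of these components themselves.

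The label was checked against 10 markers of breast lines. ESR1, the estrogen receptor gene, stayed at or below 0.170 CPM (counts per 1000000 reads, scaled by the authors) in each library, where 3 reads are worth 0.212 to 0.267 CPM. KRT8, KRT18 and VIM were well expressed, at 76.4 CPM or more in each library, and KRT19 was at or below 0.0825 CPM. CDH2 was at 52.1 to 78.2 CPM, EPCAM at 3.93 to 7.62 CPM and CDH1 at 0.330 to 1.41 CPM. PGR, the progesterone receptor gene, was at 4.33 to 5.95 CPM and ERBB2 at 35.7 to 65.0 CPM, so transcripts of these receptors were present. Of the 10 markers, 2 were called higher at high glucose (EPCAM and CDH2) and 4 lower (KRT8, KRT18, VIM and ERBB2). Of 9 leukocyte markers 5 were in the table and their summed level was 15.1 to 19.4 at low and 18.8 to 23.7 CPM at high glucose. Most of this sum was CD68, at 9.38 to 14.3 CPM, and CSF1R, at 3.25 to 6.0 CPM, and neither passed the test, while CD14 rose from a mean of 1.25 to 4.24 CPM. The defining leukocyte marker PTPRC was at most 0.178 CPM and LYZ was 0 in all libraries but high-glucose replicate 1 (0.0706 CPM). Of 8 hepatocyte markers 4 were in the table, none reached a mean of 1 CPM in either group, and ALB was at most 0.364 CPM. All 5 endothelial markers were in the table, with a summed level of 3.99 to 4.50 CPM at low and 4.07 to 5.60 CPM at high glucose, of which PECAM1 and KDR were called higher and VWF and CDH5 lower. The part of such cells in the results was not tested. Libraries held an estimated 9721600 to 12482500 reads. High-glucose replicate 1 stood apart: its deviation from its group followed transcript length (Spearman's rho across genes -0.65, against 0.25 to 0.46 in the other high-glucose libraries). In bulk RNA, fewer cells expressing a gene and less RNA per cell cannot be told apart, which holds for each level below.

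Promoter sequence was available for 6 of the 9 genes (12 start sites, RefSeq on the GRCh38.p14 build). It was searched on both strands, from 250 bases before to 50 after each start, for the ISRE core (GAAANNGAA) and GAS (TTCNNNGAA) elements of interferon signaling, NF-kappaB (GGNNNTTCC), AP-1 (TGANTCA), the GC box (GGGCGG), the E-box (CACGTG) and the TATA box (TATAAA). Stretches from the genes with the largest decrease, the next largest and the largest increase are shown 5′ to 3′ on the gene's strand, with matches in capitals. The CPAMD8 stretch, chr19:17026821-17027060 on the minus strand, covers 250 to 11 bases before the upstream start and holds 3 GC boxes. The C1R stretch, chr12:7091904-7092143 on the minus strand, covers the same distances before the more downstream of its listed starts and holds 1 GAS element that begins 86 bases before it. The CD55 stretch, chr1:207321620-207321649 on the plus strand, holds 1 GC box in reverse orientation, beginning 46 bases before the start.
CPAMD8: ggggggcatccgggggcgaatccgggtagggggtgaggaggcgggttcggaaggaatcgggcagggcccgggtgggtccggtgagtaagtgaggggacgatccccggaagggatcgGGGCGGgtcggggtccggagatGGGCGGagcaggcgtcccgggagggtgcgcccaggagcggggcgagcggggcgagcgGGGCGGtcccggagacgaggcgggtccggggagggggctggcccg
C1R: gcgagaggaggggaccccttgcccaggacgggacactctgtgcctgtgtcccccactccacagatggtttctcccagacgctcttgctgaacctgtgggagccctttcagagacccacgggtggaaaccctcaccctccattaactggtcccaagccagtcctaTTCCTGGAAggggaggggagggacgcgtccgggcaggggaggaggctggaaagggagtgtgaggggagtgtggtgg
CD55: ccagcccagaccCCGCCCaaagcactcatt
A GC box was present in 45.0% and a GAS element in 7.7% of all 35116 windows of this length. No window of the 6 genes matched the ISRE core (8.1% of all windows), the E-box (7.3%) or the TATA box (11.5%). NF-kappaB (20.1% of all windows) and AP-1 (7.7%) matches were found at CD59 starts, CD59 windows also held GAS and GC box matches, CD46 windows held 3 GC boxes, and the CFI window held no match to any of the 7 motifs. The other CPAMD8 window, not shown, held 6 GC boxes, and the other C1R window held no match to any of the 7 motifs. A match is a string of letters and was not tested as a binding site.

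In these cells the C1 proteases, their inhibitor, factor I and CPAMD8 were lower at high glucose, whereas C3 and the membrane regulators CD46, CD55 and CD59 were higher. The changes ranged from -2.02 for CPAMD8 to 1.20 for CD55 on the scale of log2(CPM + 1), on which every log2 change below is given as high minus low glucose. All 9 genes were called by limma at an adjusted p threshold of 0.05 (4 higher, 5 lower), in a table in which 46.8% of all genes were called, 22.0% higher and 24.8% lower. For none of the 9 did the groups overlap, which was so for 44.5% of all genes. Nothing is read from either count, since the genes were chosen by these values. In the plot of all genes CPAMD8 and C1R lie at the lower edge and CD55 above the bulk, while CD46, CD59 and C3 lie within it.

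**Figure D1:**
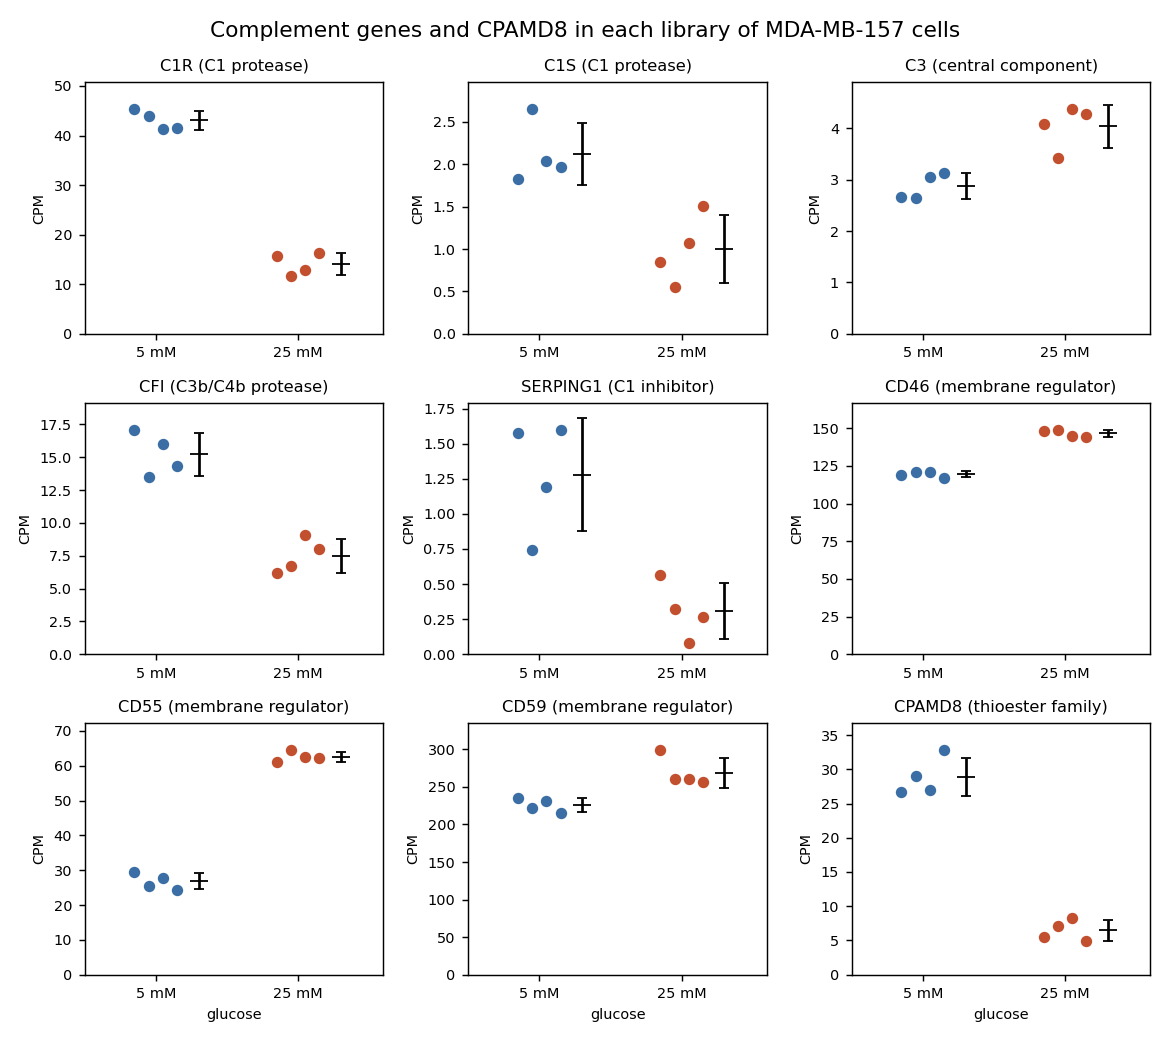
Level of each of the 9 genes in CPM (vertical axes, starting at 0) in the 4 low-glucose (blue) and 4 high-glucose (red) libraries, with the mean and SD of each group as a black bar. In each panel the 2 groups do not overlap, and the gap is widest relative to the level for CPAMD8 and narrow for C3 and CD59.

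**Figure D2:**
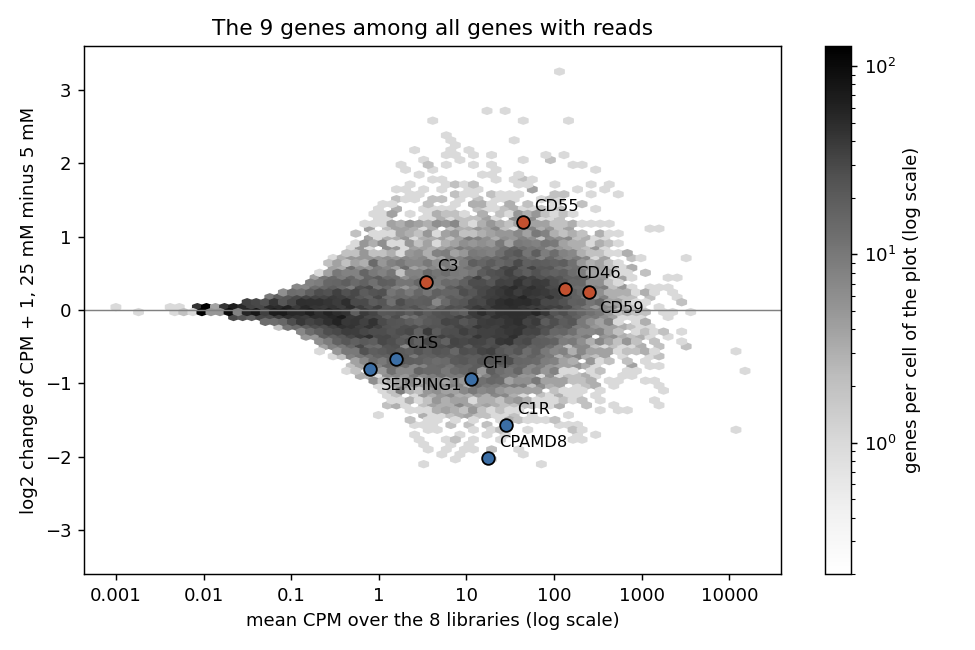
Mean CPM over the 8 libraries (log scale) against the log2 change of CPM + 1, high minus low glucose, for all genes with reads (gray, darker where more genes fall) and the 9 genes (red higher, blue lower at high glucose). CPAMD8, at -2.02, lies below nearly all genes, and CD55, at 1.20, above most.

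C1R, the protease that activates C1s, lies on chromosome 12 (7187513 to 7245203, minus strand, GENCODE 44 lifted to GRCh37, 11 exons in the transcript used). Its level was 45.3, 43.9, 41.4 and 41.6 CPM in the low-glucose libraries and 15.6, 11.6, 12.9 and 16.4 CPM in the high-glucose libraries. Each high-glucose library was thus far below each low-glucose library. The means were 43.0 ± 1.91 and 14.1 ± 2.26 CPM (SD, n = 4 each), or 32.7% of the control, with a log2 change of -1.56 ± 0.106 (SE). Of 11297 genes with a mean of at least 5 CPM, 42 had a larger decrease. C1RL, a C1r-like protease on the same strand, shares 31.8% of the C1R transcript's exonic positions, so reads there may have been split between the pair. The sum of both was 43.8 to 48.7 at low and 12.4 to 17.2 CPM at high glucose, without overlap.

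C1S, the partner protease that cleaves C4 and C2, lies on the same stretch of chromosome 12 (7096351 to 7178336, plus strand) and was close to the limit of detection. It measured 1.83, 2.65, 2.04 and 1.97 at low and 0.847, 0.558, 1.07 and 1.51 CPM at high glucose. The highest high-glucose library came near the lowest low-glucose library, but the groups did not overlap. The means were 2.12 ± 0.362 and 0.997 ± 0.402 CPM (SD, n = 4 each), a log2 change of -0.66 ± 0.156 (SE), which was -1.08 with a pseudocount of 0.1 CPM and -0.25 with 5 CPM. These levels rest on an estimated 105 and 49 reads in all, a ratio of 0.470 with an exact 95% interval of 0.328 to 0.665 that covers counting error only. Per kilobase of transcript, C1R exceeded C1S in both groups, at 20.4 against 0.791 CPM per kb at low and 6.67 against 0.372 CPM per kb at high glucose.

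SERPING1, the serpin that inhibits C1r and C1s, lies on chromosome 11 (57364860 to 57386644, plus strand) and was the lowest of the 9 genes in CPM. It measured 1.58, 0.745, 1.19 and 1.6 at low and 0.565, 0.319, 0.0825 and 0.267 CPM at high glucose. The lowest low-glucose value, in replicate 2, lay just above the highest high-glucose value, in replicate 1. The means were 1.28 ± 0.404 and 0.308 ± 0.199 CPM (SD, n = 4 each), a log2 change of -0.80 ± 0.162 (SE). At this level the log2 change is set largely by the pseudocount, and it was -1.85 with 0.1 CPM and -0.24 with 5 CPM in place of 1. An estimated 64 and 16 reads stand behind them, a ratio of 0.252 with an exact 95% interval of 0.136 to 0.440 for counting error. The coefficient of variation was 31.6% at low and 64.5% at high glucose, where single libraries held as little as 1 estimated read.

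CFI, the gene of factor I, lies on chromosome 4 (110652164 to 110723306, minus strand, 13 exons). Its level was 17.1, 13.5, 16.0 and 14.3 at low and 6.19, 6.70, 9.07 and 8.0 CPM at high glucose. The groups were well apart, with means of 15.2 ± 1.63 and 7.49 ± 1.30 CPM (SD, n = 4 each) and a log2 change of -0.94 ± 0.126 (SE). A readthrough gene, ENSG00000285330, shares 79.0% of the CFI transcript's exonic positions. This readthrough gene was listed at 2.92 CPM in high-glucose replicate 1, at 0.0187 CPM in low-glucose replicate 3 and at 0 in the other 6 libraries. Adding it raised CFI in high-glucose replicate 1 from 6.19 to 9.10 CPM, and the high-glucose libraries then spanned 6.70 to 9.10 CPM against 13.5 to 17.1 CPM at low glucose.

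C3, the central component, lies on chromosome 19 (6677715 to 6730573, minus strand, 41 exons) and was higher at high glucose, unlike the C1 proteases. It measured 2.67, 2.65, 3.06 and 3.13 at low and 4.09, 3.43, 4.37 and 4.27 CPM at high glucose. The lowest high-glucose value, in replicate 2, lay a little above the highest low-glucose library. The means were 2.88 ± 0.254 and 4.04 ± 0.424 CPM (SD, n = 4 each), a log2 change of 0.38 ± 0.0873 (SE), which was 0.20 with a pseudocount of 5 CPM. The estimated reads were 143 and 202, a ratio of 1.42 (exact 95% interval 1.14 to 1.77, counting error only).

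CD55, or decay-accelerating factor, and CD46, or membrane cofactor protein, lie in the regulators of complement activation cluster on chromosome 1 (207494864 to 207560149 and 207925382 to 207968858, both plus strand). CD55 measured 29.4, 25.6, 27.9 and 24.3 at low and 61.1, 64.5, 62.4 and 62.1 CPM at high glucose, with no low-glucose library near the high-glucose range. Its means were 26.8 ± 2.32 and 62.5 ± 1.41 CPM (SD, n = 4 each), a 2.33-fold difference and a log2 change of 1.20 ± 0.0590 (SE). Of the 11297 genes with at least 5 CPM, 195 had a larger increase.

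CD46 was 119, 121, 121 and 117 at low and 148, 149, 145 and 144 CPM at high glucose. The difference was small and the spread smaller still, with means of 119 ± 2.03 and 146 ± 2.23 CPM (SD, n = 4 each), 1.23-fold, and a log2 change of 0.29 ± 0.0187 (SE). The coefficient of variation was 1.7% at low and 1.52% at high glucose, at or below the 2.60% and 2.33% that counting of the estimated reads would give. CD46 shares 6.0% of its exonic positions with an RNA gene on the opposite strand, MIR29B2CHG, and whether the counting used strand is not given in the sources used here.

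CD59, or protectin, on chromosome 11 (33724556 to 33758025, minus strand), was the most abundant of the 9 genes. It measured 235, 222, 231 and 215 at low and 299, 260, 260 and 256 CPM at high glucose. High-glucose replicate 1, the library whose deviation followed transcript length, lay well above the rest of its group, which were within a narrow range above the low-glucose libraries. The means were 226 ± 9.25 and 269 ± 20.2 CPM (SD, n = 4 each), 1.19-fold, with a log2 change of 0.25 ± 0.0566 (SE) that was 0.20 without high-glucose replicate 1. A readthrough gene, ENSG00000284969, shares 8.3% of the CD59 exonic positions and was listed at 0.306 to 2.81 CPM, and with it added the libraries spanned 215 to 235 and 259 to 301 CPM.

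CPAMD8 lies on chromosome 19 (17003762 to 17137625, minus strand, 42 exons) and showed the largest decrease of the 9 genes. Its level was 26.7, 29.0, 27.0 and 32.8 at low and 5.44, 7.09, 8.33 and 4.98 CPM at high glucose. The highest high-glucose library was far below the lowest low-glucose library. The means were 28.8 ± 2.8 and 6.46 ± 1.54 CPM (SD, n = 4 each), 22.4% of the control, with a log2 change of -2.02 ± 0.152 (SE), and 2 of the 11297 genes with at least 5 CPM had a larger decrease. A processed pseudogene on another chromosome shares 21.4% of the 31-base words of the CPAMD8 transcript. It was listed at no more than 0.277 CPM in any library, so adding it left the CPAMD8 ranges at 26.8 to 33.0 and 4.98 to 8.41 CPM.

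Expressed per kilobase of the transcript used, the 3 membrane regulators and C1R led the 9 genes at low glucose. The order of the mean levels was CD46 at 36.0, CD59 at 29.9, C1R at 20.4, CD55 at 10.3, CFI at 7.70, CPAMD8 at 4.82, C1S at 0.791, SERPING1 at 0.700 and C3 at 0.550 CPM per kb. The libraries of neighboring genes in this order did not overlap, except for C1S with SERPING1 and SERPING1 with C3. At high glucose CD55, at 24.1 CPM per kb, had passed C1R, at 6.67, and C3, at 0.772, had passed C1S and SERPING1, at 0.372 and 0.168. Among these last 3 genes C3 and C1S did not overlap in either group, whereas C1S and SERPING1 overlapped in both. This order rests on 1 transcript per gene, and isoform use was not analysed here.

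**Figure D3:**
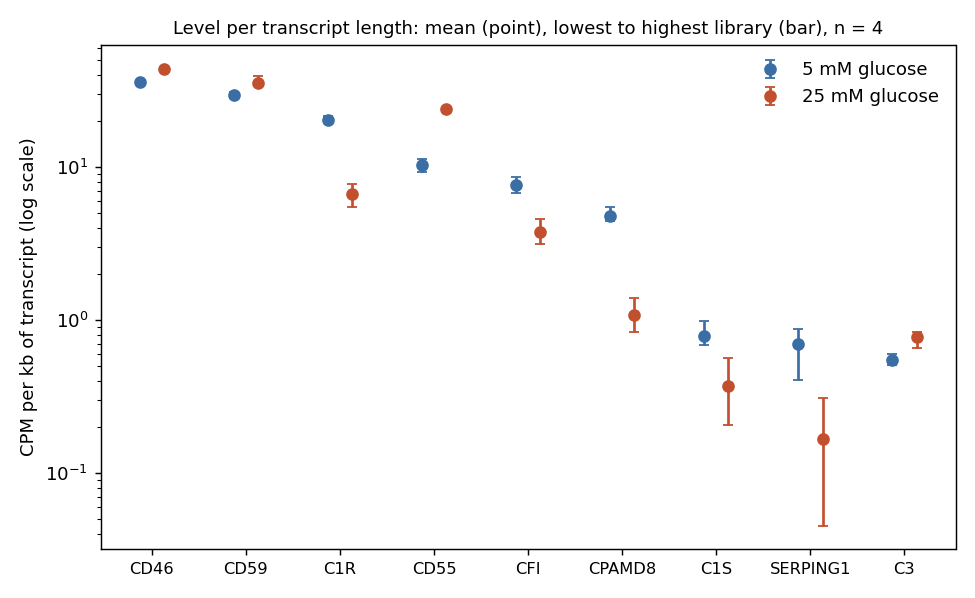
Level in CPM per kb of transcript (log scale) of the 9 genes, ordered by their low-glucose mean, at low (blue) and high (red) glucose, where points are means and bars run from the lowest to the highest of 4 libraries. CD55 moves from 10.3 to 24.1 and CPAMD8 from 4.82 to 1.08 CPM per kb.

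Other complement genes were then tested with limma, with the false discovery rate controlled over all 21059 genes. Of 57 further genes of the cascade, its regulators, receptors and the thioester family, 34 were in the table and 16 of these were called, 3 higher and 13 lower. The share called was near that of all genes, and the median log2 change of the 34 genes was -0.13, against -0.01 for all genes. At a mean of at least 1 CPM in a group there were 16 of them, of which 13 were called, 2 higher and 11 lower. Their median log2 change was -0.54, against -0.04 for all 14826 such genes, of which 61.9% were called. Of the 34 genes 18 stayed below a mean of 1 CPM in both groups, and 3 of the calls (FCN2 and A2M lower, COLEC11 higher, singled out after their values were seen) were among these few-read genes.

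Among genes of the initiation routes, 6 of 9 in the table were called, 5 of them lower. Of all genes 46.8% were called and 24.8% were called lower. Nothing is read from this count or from those of the other short complement lists below. C4A and C4B are counted singly here and again in the thioester family. C4A and C4B, the near-identical genes of the component that C1s cleaves, share 96.0% of their words, so only their sum is firm. The sum was 19.1, 18.7, 17.7 and 15.6 at low and 7.40, 10.2, 9.54 and 8.89 CPM at high glucose, with means of 17.8 ± 1.56 and 9.0 ± 1.19 CPM (SD, n = 4 each) and no overlap. Taken singly, C4B had a log2 change of -1.01 (adjusted p = 0.00150) and C4A of -0.59 (adjusted p = 0.00515). C1RL fell from 3.08 ± 0.663 to 0.897 ± 0.13 CPM (SD, n = 4 each), with a log2 change of -1.09 (limma adjusted p = 3.13e-04). C2, which provides the protease of the classical C3 convertase, had a log2 change of -0.35 (adjusted p = 0.0377), and this call was lost in 11 of 18 alternative fits, among them that without any of 7 libraries in turn. MASP2, the protease of the lectin route, was 1.59 at low and 1.86 CPM at high glucose and did not pass (adjusted p = 0.175).

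Of 5 further genes of the alternative and terminal routes in the table, 2 were called, CFB lower and CFP higher. CFB, which encodes the protease of the alternative C3 convertase, measured 7.14 to 7.92 at low and 2.89 to 4.27 CPM at high glucose, with a log2 change of -0.90 ± 0.101 (SE, limma adjusted p = 3.11e-04). A readthrough gene that shares 90.8% of the CFB transcript was listed at 0 throughout. CFP, which encodes properdin, the stabilizer of that convertase, was near the detection limit, at 0.166 to 0.737 at low and 0.847 to 1.83 CPM at high glucose, and its adjusted p of 0.0498 was lost in 11 of 16 alternative fits, including those without any 1 of 7 libraries. A noncoding RNA gene on the same strand shares 87.4% of the CFP transcript's exonic positions, so reads there may not all belong to CFP. C3 itself thus was higher while CFB was lower.

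Of the soluble regulators outside the 9 genes, 6 were in the table and 3 of these were called, all lower. CLU, which encodes clusterin, and VTN, which encodes vitronectin, both inhibitors of the terminal complex, had log2 changes of -0.34 (limma adjusted p = 0.00674) and -0.50 (limma adjusted p = 0.0104). CLU measured 100 to 112 at low and 75.3 to 94.4 CPM at high glucose, and VTN 1.36 to 2.11 and 0.622 to 1.13 CPM, without overlap in either case.

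The membrane regulators called outside the 9 genes moved against CD46, CD55 and CD59. CSMD1, a large transmembrane protein with complement-inhibiting domains, fell from 24.3 ± 1.21 to 14.2 ± 1.93 CPM (SD, n = 4 each, log2 change -0.74, limma adjusted p = 5.98e-04). SUSD4, a sushi-domain protein known to inhibit complement, fell from 21.4 ± 0.874 to 12.0 ± 1.37 CPM (SD, n = 4 each, log2 change -0.80, limma adjusted p = 1.67e-04). Of 5 such genes in the table, 2 were called, both lower.

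Of 6 receptor genes in the table, 1 was called. ITGB2, the beta chain of complement receptors on leukocytes, rose from 3.90 ± 1.01 to 9.84 ± 0.740 CPM (SD, n = 4 each, log2 change 1.17, limma adjusted p = 6.09e-04). The leukocyte marker CD14 also rose, from 1.25 to 4.24 CPM (adjusted p = 0.00252), the only called gene of the 5 leukocyte markers in the table, while PTPRC was at most 0.178 CPM. The part of other cells in the ITGB2 result was not tested. C1QBP, a mitochondrial protein also described as a receptor for C1q, was 172 and 186 CPM (adjusted p = 0.239), and C5AR1, the C5a receptor, was 1.09 and 0.755 CPM (adjusted p = 0.581). C1QBP passed the threshold, with an adjusted p of 7.79e-04, when a trend on transcript length was removed.

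Besides CPAMD8 and C3, which was higher, the family that carries or derives from the thioester domain had 6 genes in the table, of which 4 were called, all lower. CD109, a GPI-anchored member of the family, measured 202, 201, 206 and 208 at low and 83.3, 92.5, 94.7 and 101 CPM at high glucose. The groups were far apart for this abundant transcript, which had a log2 change of -1.13 ± 0.0540 (SE, limma adjusted p = 6.38e-06). The others were C4A and C4B, given above, and A2M, at 0.146 to 0.255 CPM at low glucose and listed at 0 at high glucose, below the 3-read floor in nearly all libraries.

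**Figure D4:**
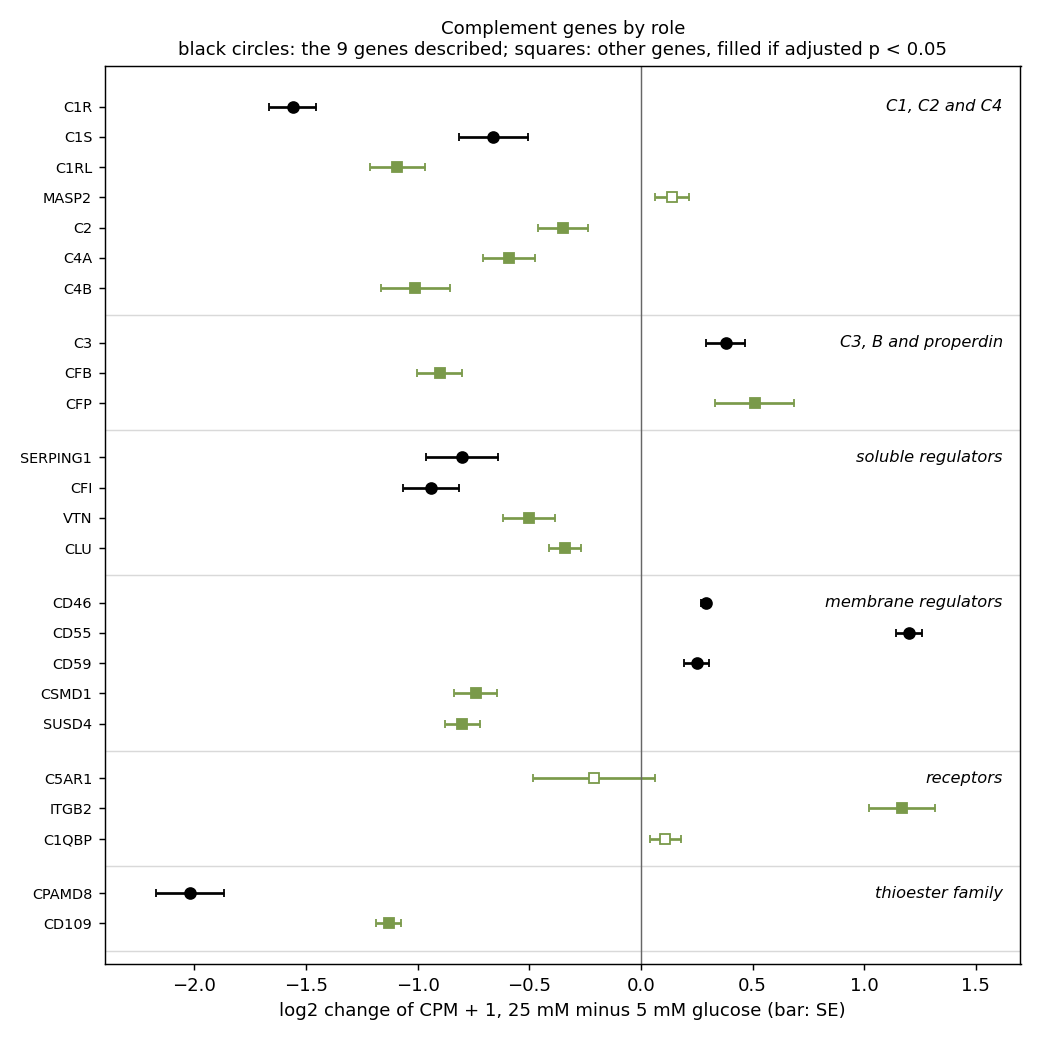
Log2 change of CPM + 1, high minus low glucose, with SE, of the 9 genes (black circles) and of the other complement genes plotted with at least 1 CPM in a group (green squares, filled where the adjusted p is below 0.05), ordered by role. The C1, C2 and C4 genes and the soluble regulators lie left of 0 apart from MASP2, while CD46, CD55 and CD59 lie right of 0 and CSMD1 and SUSD4 left of it.

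CD55 and CD59 are held in the membrane by a glycosylphosphatidylinositol (GPI) anchor, and CD46 by a transmembrane segment. Of 26 genes of GPI anchor synthesis and remodeling, 18 were called, 15 lower and 3 higher, with a median log2 change of -0.44 against -0.01 for all genes. All but 1 of them reached a mean of 1 CPM in a group, and of all 14826 genes that did so 61.9% were called, 29.3% higher and 32.6% lower. PIGK, the catalytic subunit of the transamidase that attaches the anchor, fell from 70.8 ± 2.12 to 44.9 ± 1.03 CPM (SD, n = 4 each, log2 change -0.64, limma adjusted p = 4.35e-06). PIGO, which takes part in adding phosphoethanolamine to the anchor, had a log2 change of -0.76 (limma adjusted p = 5.99e-06). MPPE1, which removes a phosphoethanolamine side group, had a log2 change of -0.60 (limma adjusted p = 7.01e-05). GNAL, on the opposite strand, shares 60.5% of the MPPE1 transcript's exonic positions. Whether the counting used strand is not given, so reads of GNAL may enter the MPPE1 value. PIGP, a subunit of the enzyme of the first step, had a log2 change of -0.88 (adjusted p = 5.13e-05). The 3 genes that rose, named after their values were seen, were PIGW (log2 change 0.51), PIGH (0.35) and PIGA (0.33).

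Interferons, interleukin 6 and NF-kappaB are known inducers of several complement genes. Of 19 genes of these signaling routes, 12 were called, 6 higher and 6 lower, with a median log2 change of -0.11. All 19 reached 1 CPM in a group, and their share called was near the 61.9% of all such genes. STAT2, a subunit of the interferon-activated factor that binds the ISRE, measured 163, 173, 161 and 165 at low and 82.9, 84.1, 78.7 and 80.3 CPM at high glucose, with a log2 change of -1.01 ± 0.0306 (SE, limma adjusted p = 1.51e-06). IRF9, the DNA-binding subunit of the same factor, fell from 19.6 to 9.31 CPM (adjusted p = 1.07e-04), but a readthrough gene that shares 93.1% of its exonic positions rose from a mean of 6.59 to 10.4 CPM. The sum of both was 23.2 to 29.5 at low and 18.2 to 20.3 CPM at high glucose, still without overlap but with a smaller difference. NFKB1, which encodes the p50 subunit of NF-kappaB, rose from 41.6 ± 1.7 to 65.3 ± 2.29 CPM (SD, n = 4 each, log2 change 0.64, limma adjusted p = 1.53e-05).

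**Figure D5:**
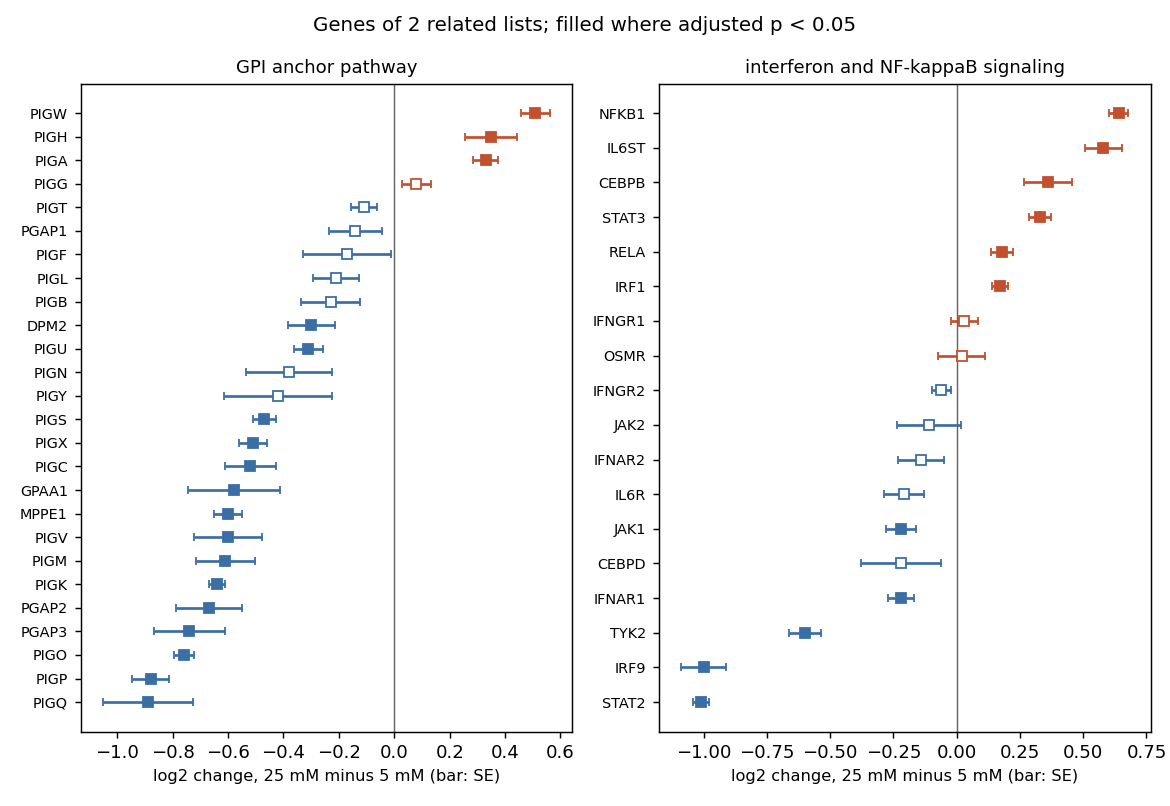
Log2 change of CPM + 1, high minus low glucose, with SE, of 26 GPI anchor genes (left) and of genes of interferon, interleukin 6 and NF-kappaB signaling (right), filled where the adjusted p is below 0.05. Of the filled points in the left panel 15 of 18 lie left of 0, while those in the right panel lie on both sides.

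Genes close to the 9 on the chromosome went both ways, except that CD46 and CD55 had only 1 called neighbor each, which was lower. Within 250 kb of CPAMD8 there were 11 other genes with a mean of at least 1 CPM over the 8 libraries, of which 5 were lower and 4 higher at the same threshold. Of 20 such neighbors of C1R, 7 were lower, C1S and C1RL included, and 2 higher. The single such neighbor of CD55, PFKFB2, a glycolytic regulator, was lower (log2 change -0.28), and SERPING1 had 13 neighbors, 6 higher and 3 lower. CD46 had 2 such neighbors, 1 of them lower and 0 higher. For C1S there were 23 (3 higher, 7 lower), for C3 11 (2 higher, 4 lower) and for CFI 7 (2 higher, 2 lower). CD59 had 4, of which 2 were higher, its readthrough gene included, and 1 lower. Of all genes with a mean of at least 1 CPM in a group, 61.9% were called, so nothing is read from these counts.

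The profiles of CPAMD8 and CD55 over the 8 libraries were shared by many genes. By Pearson's r of log2(CPM + 1) against 11296 other genes with at least 5 CPM, CPAMD8 was most like AGPAT3 (r = 0.9968), COL5A1 (r = 0.9968) and PBX2 (r = 0.9965), and 1168 genes exceeded 0.95. CD55 was most like METTL6 (r = 0.9977), RPRD1B (r = 0.9977) and TTK (r = 0.9971), and 1662 genes exceeded 0.95. These correlations are a description over 8 libraries in 2 groups whose points share the libraries and the split between the groups.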

How the data were processed

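RNA-Seq of 8 MDA-MB-157 libraries (4 low and 4 high glucose, grouped by the treatment label) was analysed from 1 table of CPM that the authors deposited, which the authors had normalized in edgeR by TMM (trimmed mean of M values). The submitters' processing notes name hg38. The methods describe hg19 for tumors, and the counting tool and its use of strand are not given in the sources used here. Of the lines, 18 Y copies of pseudoautosomal genes, identical to the X copies, were left out, and 21059 genes were kept. Low values fell on steps of 1 read, and 73.2% to 74.6% of those below 200 reads were whole (tolerance 0.02 read), so counts were fractional, no count test was run, and reads (9721600 to 12482500 per library) are estimates. The test was limma 3.58.1 in R 4.3.3 on log2(CPM + 1) with an empirical Bayes mean-variance trend and Benjamini-Hochberg adjustment, tested on simulated data. Such fold changes understate those of low genes. Intervals and the 3-read floor cover counting error only. The 9 genes and all gene lists were chosen with earlier results of these data known. Named genes were the 9, list genes with a mean of at least 1 CPM in a group, the 4 smallest adjusted p of the anchor and signaling lists, and the 3 genes most like CPAMD8 and CD55. Lengths, exons and shared 31-base words came from GENCODE 44 lifted to GRCh37 and describe annotation only. Replicate numbers did not pair the samples. Protein sequences were not analysed here. Alternatives were other pseudocounts, filters, scalings, a replicate block, length trend removal, no mean-variance trend, leaving out each library and, chosen after seeing the data, sums with overlapping genes. Some list genes enter the counts but are not reported here by name.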

Additional observations from a re-analysis of the deposited data

Results flagged for a closer look

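Values were examined in 72 groups of 4 libraries for a library far from the other 3, and 7 groups passed Dixon's 95% critical ratio of gap to range, where chance alone would give about 3.6. CD59 was 299 CPM in high-glucose replicate 1, against 260 CPM in the nearest library of its group. ITGB2 was 11 CPM in high-glucose replicate 3, with the nearest at 9.51 CPM. CFP was 1.83 CPM in high-glucose replicate 2, with the nearest at 0.978 CPM. The readthrough gene over CFI was 2.92 CPM in high-glucose replicate 1 and 0.0187 CPM in low-glucose replicate 3, with the other libraries of each group at 0. The CPAMD8 pseudogene was 0.0858 CPM in high-glucose replicate 3, with the others at 0, which is about 1 read. Low-glucose replicate 4 held an estimated 12104200 reads, against 10623000 in the nearest library of its group.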

How the results depend on the processing

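Of 139 values recomputed under alternatives other than leaving out a library, 124 stayed within the spread between replicates (counts within 1.5 times), 15 moved beyond it and 0 reversed direction. For the log2 changes of the 9 genes, the filters, the replicate block and the fit without a mean-variance trend cannot alter the value. Those log2 changes are among the 124 by construction and say nothing about robustness. Pseudocounts moved the low genes most: with 5 CPM the log2 changes were -1.34 for C1R, -0.25 for C1S, 0.20 for C3, -0.70 for CFI, -0.24 for SERPING1, 1.09 for CD55 and -1.57 for CPAMD8, and with 0.1 CPM -1.08 for C1S and -1.85 for SERPING1. Quantile normalization gave 0.53 for C3 and 0.17 for CD46. For CD46, whose replicates hardly vary, median-of-ratios scaling gave 0.34, equal totals 0.32 and removal of the length trend 0.27. A filter of at least 5 CPM left 9 complement genes called outside the 9, of 10 tested, against 16 of 34. The share called over all genes rose as well under this filter, to 8120 of 11297 genes, against 9849 of 21059 without it. Leaving out each library gave -1.63 to -1.47 for C1R, -0.78 to -0.55 for C1S, 0.34 to 0.44 for C3, -1.03 to -0.87 for CFI, -0.92 to -0.71 for SERPING1, 0.28 to 0.30 for CD46, 1.15 to 1.24 for CD55, 0.20 to 0.27 for CD59 and -2.13 to -1.92 for CPAMD8, with 13 to 15 other complement genes, 16 to 21 anchor genes and 12 to 13 signaling genes called. Over all 21059 genes, 8899 to 10156 were called on leaving out each library. With the replicate number as a block, 8 of the 9 genes (all but C1S), 13 other complement genes, 17 anchor genes and 11 signaling genes were called. The block left 8921 of all 21059 genes called. The libraries share a number only, since deviations of same-numbered libraries correlated at -0.04 to 0.07. The calls of FCN2 (adjusted p 0.0159 to 0.0722 over the alternatives), C2 (0.0245 to 0.210), CFP (0.0297 to 0.158) and VTN (0.00815 to 0.0584, lost with the block) depended on the setting. Depth limits the genes with few reads, among them SERPING1, C1S, CFP, FCN2, COLEC11 and A2M. The cause of these shifts was not tested.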
